A study of Bos taurus with 2 samples.

Results

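The genes described here are 6 genes of the Notch pathway in day 25 bovine embryos: the ligands DLL1 and DLL3, the transcriptional repressors HES1, HES5 and HES6, and the feedback regulator NRARP. They were chosen by name, with earlier results of these data known, as 6 of the 17846 genes in the deposited single-cell count table. The 6 were followed across 3 classes of cells in each replicate. Neurons were cells with a UMI (a tag that counts 1 captured RNA molecule) of at least 3 of the 5 genes TUBB3, DCX, ELAVL3, ELAVL4 and STMN2. Progenitors were cells with a SOX2 UMI and fewer than 3 of those genes, and the rest were the other cells.

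The embryos were chimeras that carried bovine embryonic stem cells, and both samples, replicates 1 and 2, bear the same label, so there was no untreated or non-chimeric group. Papain-dissociated cells of flushed embryos were sorted before 10x Genomics 3' v3.1 libraries were made. The labels used here give no gate for this sort, no breed or sex, and no count of donor-derived cells. Nothing in the labels says that the replicates came from separate embryos. The comparisons were therefore between cell classes of the same suspensions, and the p-values measure only the spread between these 2 samples, which may be technical.

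Notch signalling passes between touching cells: a ligand such as DLL1 on one cell cuts loose the intracellular part of a NOTCH receptor on its neighbour, which joins RBPJ in the nucleus and turns on targets that include HES1, HES5 and NRARP. In the developing neural tube of mice and chicks, HES1 and HES5 repress proneural genes and hold cells as progenitors, while newly forming neurons raise DLL1 and so keep their neighbours from differentiating. DLL3 differs from DLL1 in that it does not activate receptors on neighbouring cells and is held mostly inside the cell, and HES6, known from mice and frogs, opposes HES1 and favours neuronal differentiation. NRARP, known from frogs and mice, binds the activated receptor complex and dampens it.

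Replicate 1 held 1973 cells and 11182089 UMIs and replicate 2 held 2464 cells and 15427708 UMIs, and 6 barcodes occurred in both. The classes held 430 and 519 neurons, 817 and 1106 progenitors, and 726 and 839 other cells in replicates 1 and 2. They differed in depth, with median UMIs per cell of 7284 and 8041 in neurons, 5609 and 6465.5 in progenitors, and 2998 and 2985 in other cells. Their median share of UMIs from ribosomal protein genes also differed, at 7.62% and 12.2% in neurons, 4.15% and 6.38% in progenitors, and 3.65% and 3.78% in other cells. Of 7 progenitor markers tested, SOX2 among them, 2 were higher and 2 lower in neurons than in progenitors. The stem cell filament NES stood at 404 and 446 CPM (a gene's UMIs summed over a class and scaled to the same total in every class) in neurons, against 849 and 853 CPM in progenitors. FABP7, a fatty acid binding protein of radial glia, ran the other way, at 108 and 135 CPM in neurons, against 61.6 and 71.8 CPM in progenitors. The neural factor PAX6 overlapped, at 137 and 143 CPM in neurons, against 147 and 105 CPM in progenitors. The other cells were mixed. There 9 mesenchyme markers summed to 4235 and 7680 CPM, against 333 and 353 CPM in progenitors. The 8 erythroid markers summed to 36399 and 57933 CPM, against 735 and 7104 CPM in progenitors. The 7 progenitor markers, with SOX2 at 0 by definition, summed to 1736 and 1998 CPM, against 3325 and 3772 CPM in progenitors. PAX6 was found in 24.9% and 21.7% of the other cells, against 44.1% and 37.8% of progenitors. How many of the other cells were progenitors with no SOX2 UMI captured was not tested. Markers of presomitic mesoderm, another known site of DLL1, DLL3 and HES activity, summed to between 5.10 and 11.6 CPM in every class of both replicates, and its defining genes MSGN1 and TBXT were at 0 in all of them. Of other markers that differed with the neuron class, 5 neural crest genes summed to 122 and 138 CPM in neurons, against 4.82 and 4.14 CPM in progenitors, with SOX10 and FOXD3 at 0 in neurons of replicate 2. Dissociation stress genes, 10 in all, summed to 1154 and 1279 CPM in neurons, against 1856 and 1869 CPM in progenitors. The part of depth, ribosomal protein share and these lists in the results was not tested beyond the alternatives given.

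Neurons were first set against progenitors. DLL1, DLL3 and HES6 were higher in neurons and HES1 and NRARP were lower, while HES5 did not pass the test: 5 of the 6 genes were called in a comparison in which 46.7% of all 13285 genes tested were called (25.1% higher and 21.7% lower). Calls were thus common among all genes, and the sizes are given below. Levels are in CPM, and tests are edgeR's quasi-likelihood test on the sums with Benjamini-Hochberg adjustment.

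DLL3 stood at 78.7 and 99.6 CPM in neurons of replicates 1 and 2, against 3.41 and 3.20 CPM in progenitors. Both neuron values lay far above both progenitor values, and the log2 fold change was 4.95 (SE 0.17, adjusted p = 1.41e-10). Neurons held 90.0% and 90.9% of all DLL3 UMIs. A DLL3 UMI was found in 12.8% of neurons (95% exact binomial interval 9.78 to 16.3%) and 15.0% (12.1 to 18.4%), against 1.96% and 1.90% of progenitors. In 57 and 117 cells with at least 3 mesenchyme markers, which were sequenced to a median of 7573 and 8673 UMIs, no cell had one, which allows a share of up to 5.26% and 2.56% (3 counts of the cells). That limit is on cells with a UMI, not on cells expressing the gene, and all intervals and limits cover counting error only.

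DLL1, the ligand that activates receptors on neighbouring cells, stood at 11.9 and 24.4 CPM in neurons, against 7.63 and 5.47 CPM in progenitors. Neurons lay above progenitors in both replicates, but by unequal amounts. The log2 fold change was 1.71 (SE 0.36, adjusted p = 0.00314); without replicate 1 it was 2.30 and without replicate 2 it was 0.82. Where ribosomal protein genes made up under 10% of a cell's UMIs it was 0.78 and did not pass (adjusted p = 0.147). DLL1 was found in 6.74% and 11.8% of neurons, against 4.41% and 3.44% of progenitors and 1.75% and 0.855% of the mesenchyme marker cells.

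HES6 stood at 184 and 159 CPM in neurons, against 21.3 and 23.8 CPM in progenitors. The classes did not overlap, and the log2 fold change was 3.09 (SE 0.13, adjusted p = 7.65e-10). It was found in 31.9% and 38.5% of neurons, against 11.1% and 12.6% of progenitors and 3.51% and 5.98% of the mesenchyme marker cells. Neurons held 80.4% and 73.0% of its UMIs.

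HES1, the broadly used Notch target, ran the other way, at 49.6 and 53.5 CPM in neurons, against 166 and 151 CPM in progenitors. The log2 fold change was -1.43 (SE 0.10, adjusted p = 1.65e-07), with no overlap between the classes. NRARP had 6.77 and 9.71 CPM in neurons, against 25.5 and 19.4 CPM in progenitors, a log2 fold change of -1.21 (SE 0.25, adjusted p = 0.00154). The classes did not overlap for NRARP either, but it no longer passed where that share was at least 10% (log2 -0.51, adjusted p = 0.310) or with neurons defined by at least 2 markers (log2 -0.40, adjusted p = 0.0940).

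HES5, a Notch target of neural progenitors, was the exception among the Notch targets chosen. It stood at 95.1 and 91.9 CPM in neurons, against 120 and 123 CPM in progenitors, and both neuron values were the lower ones. The difference did not pass the test (log2 -0.21, SE 0.11, adjusted p = 0.140). Its sign and its call moved with how the classes were made: it was called lower with at least 4 markers required of a neuron (log2 -0.81, adjusted p = 6.69e-04), and called higher with at least 2 (log2 0.30, adjusted p = 0.0354). It was also called lower among cells under a 10% ribosomal protein share (log2 -0.93, adjusted p = 1.34e-04). The same call came without the top 5% of cells by UMIs (log2 -0.40, adjusted p = 0.0130) and with at least 2 SOX2 UMIs (log2 -0.50, adjusted p = 1.19e-04). With each cell thinned to 2000 UMIs it was called lower too, at log2 -0.42 (adjusted p = 0.0213) with classes kept. With classes set again it was -2.18 (adjusted p = 1.93e-19), but that neuron class was smaller and differently made. It held 207 and 263 cells, of which 33 and 40 were SOX2-positive.

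**Figure D1:**
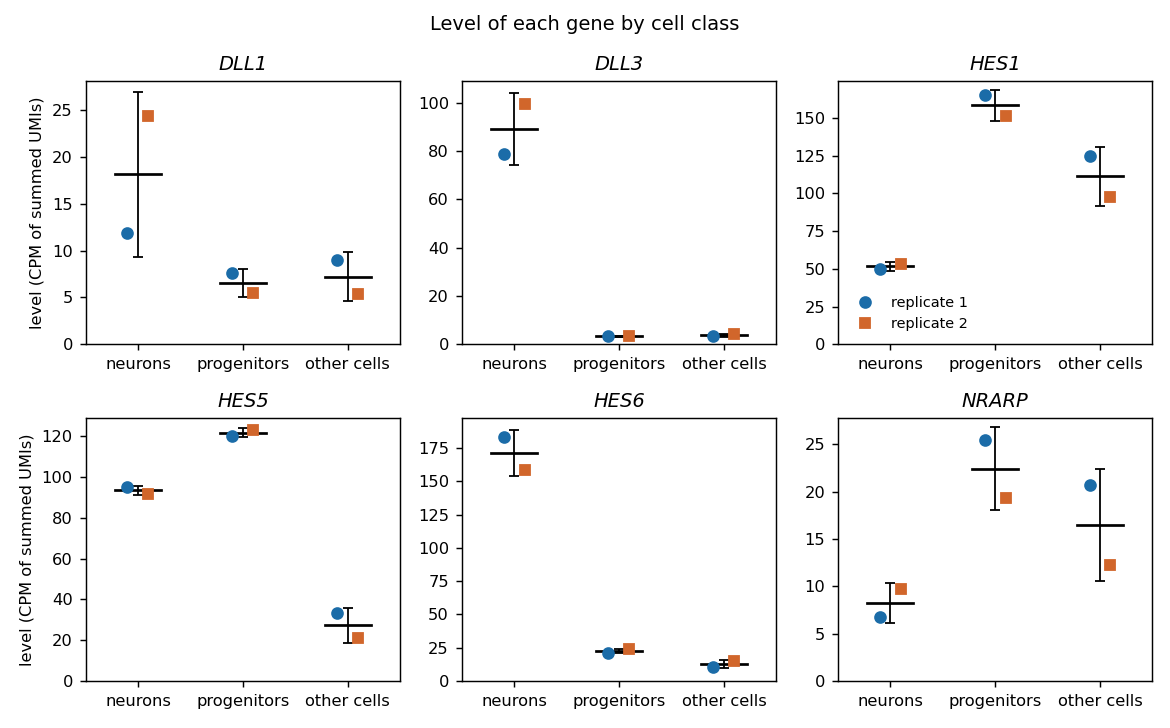
Level of each gene (CPM of the UMIs summed over a class) in neurons, progenitors and other cells; points are the 2 replicates, and bars are their mean and SD (n = 2). DLL3 and HES6 stand out in neurons, HES1 and NRARP are lowest there, and HES5 is low only in the other cells.

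The progenitors were then set against the other cells, which lack SOX2 UMIs and most neuron markers. HES5, HES6 and HES1 were higher in progenitors, and DLL1, DLL3 and NRARP did not pass: 3 of 6 genes were called, all higher, where 23.2% of all genes tested were called, 9.14% higher and 14.1% lower. Without the top 5% of cells by UMIs that balance turned, to 1760 genes higher and 1350 lower. HES5 had the largest difference of the 6, at 120 and 123 CPM in progenitors, against 33.2 and 21.2 CPM in the other cells (log2 2.06, SE 0.13, adjusted p = 2.61e-07). It was found in 20.9% and 21.2% of progenitors, against 8.26% and 7.03% of the other cells, beside 7.02% and 9.40% of the deeper mesenchyme marker cells. The other cells were not uniform, since those with 2 neuron markers held HES5 in 14.8% and 10.7% of cells.

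HES1 stood at 166 and 151 CPM in progenitors, against 125 and 97.5 CPM in the other cells. The classes did not overlap, but the difference was small (log2 0.39, SE 0.09, adjusted p = 0.00798). It did not pass without the replicate block (log2 0.39, adjusted p = 0.0670), by DESeq2 (adjusted p = 0.147) or at a ribosomal protein share of at least 10% (log2 0.10, adjusted p = 0.611). HES1 was also found outside the neural classes: the mesenchyme marker cells had 128 and 112 CPM, and 49.1% and 44.4% of them held a UMI.

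HES6 had 21.3 and 23.8 CPM in progenitors, against 10.6 and 14.8 CPM in the other cells (log2 0.68, SE 0.19, adjusted p = 0.0235). That call was lost by DESeq2 (adjusted p = 0.103) and in cells thinned with their classes kept (adjusted p = 0.0621). It was also lost under a 10% ribosomal protein share (adjusted p = 0.426) and with neurons defined by 2 markers (adjusted p = 0.0908). Over the 12 alternatives the log2 fold change kept its sign, from 0.33 to 1.06. NRARP had 25.5 and 19.4 CPM in progenitors, against 20.6 and 12.2 CPM in the other cells. It was higher in progenitors within each replicate, but the ranges overlapped and it did not pass (log2 0.34, SE 0.22, adjusted p = 0.307). DLL1 and DLL3 were near the few-UMI level in both classes, with 38 and 41 DLL1 UMIs and 17 and 24 DLL3 UMIs in all progenitors, against 28 and 21 DLL1 UMIs and 10 and 16 DLL3 UMIs in all other cells.

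Neurons against the other cells completed the order of the levels. In that comparison 53.3% of genes were called, 26.9% higher and 26.4% lower, and all 6 genes passed. DLL3 (log2 4.64, SE 0.19), HES6 (3.76, SE 0.16), HES5 (1.85, SE 0.14) and DLL1 (1.44, SE 0.39) were higher in neurons, and HES1 (-1.04, SE 0.11) and NRARP (-0.87, SE 0.28) were lower, with adjusted p-values from 1.01e-09 for HES6 to 0.0183 for NRARP. At a ribosomal protein share of at least 10% the NRARP value was 0.60 and did not pass (adjusted p = 0.355), and HES5 was -0.54 and did not pass (adjusted p = 0.101) with cells thinned and classes set again. DLL1 lost its call in 4 of 12 alternatives. Among them were DESeq2 (adjusted p = 0.0528) and cells under a 10% share (log2 0.25, adjusted p = 0.683). Without replicate 1 the log2 fold change was 2.21 for DLL1 and -0.31 for NRARP. Without replicate 2 it was 0.47 for DLL1 and -1.53 for NRARP. Thus neurons ranked above progenitors and other cells for DLL1, DLL3 and HES6, the last of these with progenitors above other cells. Progenitors ranked first for HES1, followed by other cells and neurons. For NRARP the ranges of progenitors and other cells overlapped and neurons came last. For HES5 neurons lay below progenitors in both replicates, a difference that did not pass the test, and other cells came last.

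A finer order came from counting neuron markers. Cells were split by SOX2 detection and by the number of the 5 markers with a UMI, which gave 12 classes of at least 44 cells in replicate 1 and 57 in replicate 2. These levels are a description with no test, since depth also climbs along the axis: SOX2-positive cells with all 5 markers had a median of 9056.5 and 9735 UMIs, and those with none had 4918 and 5144.

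In SOX2-positive cells DLL3 stayed at or below 5.16 CPM with 0 to 2 markers, was 32.4 and 9.33 CPM with 3, 106 and 91.9 CPM with 4, and 319 and 408 CPM with all 5. HES6 followed the same course at 15.4 and 16.4 CPM with no marker, 126 and 173 CPM with 4 and 760 and 506 CPM with 5. DLL1 was 6.29 and 0.991 CPM with none and 38.3 and 61.2 CPM with 5. All these genes were therefore highest in the SOX2-positive cells with the most neuron markers. SOX2-negative cells with 5 markers had less of each, at 49.7 and 60.3 CPM of DLL3, 173 and 132 CPM of HES6, and 5.53 and 16.5 CPM of DLL1.

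HES1 ran down the same axis in SOX2-positive cells, with 178 and 152 CPM at no marker, 126 and 142 CPM at 2 and 45.9 and 7.42 CPM at all 5. The replicates differed most in that last class, which held 44 and 57 cells. In SOX2-negative cells with 5 markers HES1 was at 1.38 and 2.92 CPM, its lowest level over the 12 classes. NRARP was 21.0 and 20.8 CPM in SOX2-positive cells with no marker and 5.10 and 7.42 CPM with 5.

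HES5 followed neither course. It was 91.6 and 96.7 CPM in SOX2-positive cells with no marker, 179 and 154 CPM with 2, 156 and 191 CPM with 3, 285 and 168 CPM with 4, and 45.9 and 44.5 CPM with 5. Cells with intermediate numbers of markers thus had the highest HES5 level, and the class boundary at 3 markers ran through them. These same cells had a high ribosomal protein share, with a median of 17.5% and 20.6% at 3 markers, against 3.96% and 4.49% at none; its part in the course was not tested. SOX2-negative cells had less HES5 at every step, between 8.75 and 83.5 CPM.

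**Figure D2:**
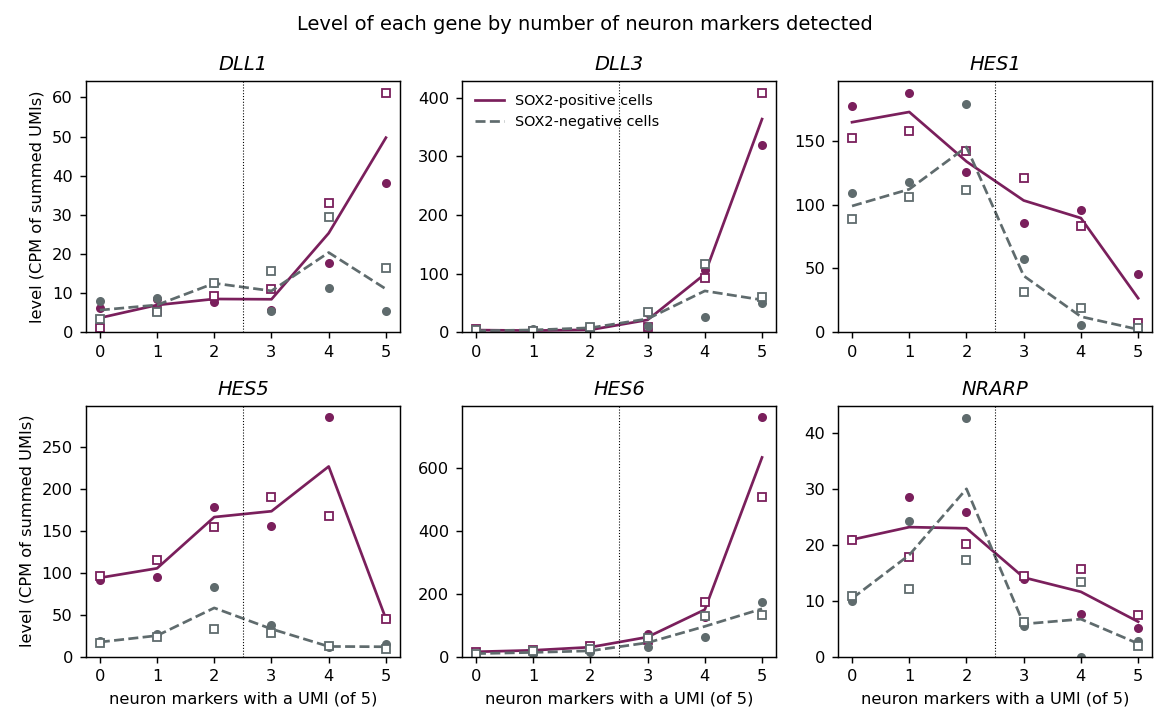
Level of each gene (CPM of summed UMIs) by the number of the 5 neuron markers with a UMI, for SOX2-positive cells (solid line) and SOX2-negative cells (dashed line); filled circles are replicate 1, open squares replicate 2, lines their mean, and the dotted line marks the boundary at 3 markers. DLL3, HES6 and DLL1 climb at 4 and 5 markers, HES1 declines, and HES5 peaks at 2 to 4 markers in SOX2-positive cells.

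The neurons themselves were split by SOX2 detection, into 202 and 263 SOX2-positive and 228 and 256 SOX2-negative cells. Of the 6 genes, 5 were higher in SOX2-positive neurons and DLL1 did not pass, where 35.3% of 12871 genes were called, 17.7% higher and 17.7% lower. HES5 stood at 161 and 151 CPM in SOX2-positive neurons, against 20.0 and 13.4 CPM in SOX2-negative neurons (log2 3.30, SE 0.50, adjusted p = 0.00644). HES1 stood at 78.7 and 85.0 CPM in SOX2-positive neurons, against 16.6 and 11.6 CPM in SOX2-negative neurons (log2 2.62, SE 0.20, adjusted p = 6.46e-11). Marker genes of both classes moved with this split. The 7 progenitor markers, SOX2 included, summed to 3656 and 3956 CPM in SOX2-positive neurons, against 1034 and 1325 CPM in SOX2-negative neurons, and to 3325 and 3772 CPM in progenitors. The 5 neuron markers summed to 2036 and 2220 CPM in SOX2-positive neurons, against 3903 and 5038 CPM in SOX2-negative neurons, and all 5 were called lower. Their part in the HES1 and HES5 differences was not tested.

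NRARP was 10.3 and 13.1 CPM in SOX2-positive neurons, against 2.76 and 5.23 CPM in SOX2-negative neurons (log2 1.60, SE 0.55, adjusted p = 0.0314). DLL3 was 118 and 124 CPM, against 33.8 and 67.4 CPM (log2 1.31, SE 0.20, adjusted p = 1.98e-05). HES6 was 249 and 190 CPM, against 110 and 118 CPM (log2 0.99, SE 0.14, adjusted p = 2.97e-06). DLL1 was 16.3 and 28.3 CPM in SOX2-positive neurons, against 6.90 and 19.2 CPM in SOX2-negative neurons. It was higher in SOX2-positive neurons within each replicate, but the ranges overlapped and it did not pass (log2 0.83, SE 0.40, adjusted p = 0.120). It was called with at least 4 markers required of a neuron (log2 1.48, adjusted p = 0.00782) and with no filter on low counts (log2 0.85, adjusted p = 0.0258).

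Shares of cells showed how these levels were made up. DLL3 was found in 14.9% and 14.8% of SOX2-positive neurons, against 11.0% and 15.2% of SOX2-negative neurons, and HES6 in 31.7% and 38.0%, against 32.0% and 39.1%. For HES6 the share of positive cells was thus nearly the same, while for DLL3 it was higher in replicate 1 and nearly the same in replicate 2. All these shares are at full depth, and SOX2-positive neurons were the deeper cells. HES5 was found in 23.8% and 26.6% of SOX2-positive neurons, against 8.33% and 7.42% of SOX2-negative neurons, shares close to those of the mesenchyme marker cells, which were deeper; how much of them is free RNA was not tested. HES1 was found in 31.7% and 32.3%, against 5.26% and 6.25%.

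SOX2-positive neurons were deeper, with median UMIs of 8069 and 9183 against 6132 and 6591, and had a median ribosomal protein share of 14.0% and 19.1% against 3.48% and 8.91%. Under a 10% ribosomal protein share the difference for DLL3 was 0.40 and for HES6 0.16, and neither passed (adjusted p = 0.517 and 0.705), HES1 kept its call at 2.63, and HES5 had 3.30 but did not pass (adjusted p = 0.111). With cells thinned and classes set again only 33 and 40 SOX2-positive neurons were left, and HES6 alone passed (log2 1.23, adjusted p = 0.00156). With classes kept and cells thinned, HES1 (2.65), HES5 (2.74), DLL3 (1.12) and HES6 (1.02) passed. NRARP lost its call in 9 of 12 alternatives. No doublet caller was used; without the top 5% of cells by UMIs the values were 3.18 for HES5 and 2.59 for HES1, and both passed.

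Progenitors were split by the cell cycle genes MKI67, TOP2A, CENPF, CDK1 and KIF11 into 357 and 466 cells with at least 2 of them, called cycling, and 460 and 640 others. None of the 6 genes passed edgeR's quasi-likelihood test at an adjusted p of 0.05, none had an unadjusted p below that value, and DESeq2 called none, where 17.6% of all genes were called, 7.65% higher and 9.92% lower. That balance turned with no replicate block, to 435 genes higher and 321 lower, and on both sides of a 10% ribosomal protein share. HES1 was 168 and 161 CPM in cycling progenitors, against 164 and 144 CPM in the others (log2 0.00027, SE 0.10). HES5 was 99.3 and 164 CPM in cycling progenitors, against 137 and 93.5 CPM in the others, so the replicates went opposite ways (log2 0.14, SE 0.32). NRARP was 24.6 and 29.7 CPM in cycling progenitors, against 26.2 and 11.8 CPM in the others (log2 0.53, SE 0.29, adjusted p = 0.232), again with opposite signs in the replicates. HES6 was 20.1 and 25.3 CPM in cycling progenitors, against 22.2 and 22.6 CPM in the others. The ligands were below 8.1 CPM in both groups. The 8 erythroid markers summed to 684 and 15711 CPM in cycling progenitors, against 776 and 821 CPM in the others. Their part in the opposite signs of the replicates was not tested.

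Since the ribosomal protein share differed between classes, neurons and progenitors were each split at 10% and the difference between them was compared across that boundary. The log2 fold change of neurons over progenitors was higher in cells at or above 10%, by 2.50 (SE 0.50, adjusted p = 4.86e-04) for DLL3, 1.36 (SE 0.26, adjusted p = 6.79e-04) for HES6, 1.32 (SE 0.19, adjusted p = 4.38e-06) for HES1 and 1.22 (SE 0.18, adjusted p = 5.08e-06) for HES5. For DLL3 it was 5.64 at or above 10%, against 3.19 under it, for HES6 3.36 against 2.03, for HES1 -0.86 against -2.19 and for HES5 0.29 against -0.93. For DLL1 it was 1.33 (adjusted p = 0.107) and for NRARP 1.27 (adjusted p = 0.0684), neither past the threshold; 3.41% of 12564 genes were called in that direction and 7.48% in the other. None of the 6 passed with cells thinned to 2000 UMIs and classes set again, but their sizes went different ways: HES1 then had 1.38 and HES6 0.93, HES5 0.17 and NRARP 0.28, DLL3 -0.57 and DLL1 -0.16.

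For DLL3 and HES6 the neurons differed most. DLL3 was 126 and 126 CPM in neurons at or above 10%, against 25.4 and 41.6 CPM in neurons under 10%, and HES6 was 277 and 192 CPM against 77.7 and 85.5 CPM. In progenitors DLL3 was 3.41 and 2.01 CPM at or above 10%, against 3.41 and 4.99 CPM under it, on 8 and 9 UMIs against 9 and 15, and HES6 was 19.6 and 23.8 CPM against 22.8 and 23.6 CPM. For the targets the levels of progenitors moved as well. HES1 was 116 and 102 CPM in progenitors at or above 10%, against 209 and 224 CPM in progenitors under 10%, and HES5 was 92.6 and 85.4 CPM against 145 and 180 CPM. In neurons HES1 was 58.9 and 58.2 CPM against 39.2 and 43.2 CPM, and HES5 was 115 and 99.8 CPM against 72.9 and 74.3 CPM. The neurons on the 2 sides also differed in SOX2 detection. SOX2-positive cells were 124 of 190 and 188 of 302 neurons at or above 10%, against 78 of 240 and 75 of 217 under 10%. The part of SOX2 detection in these differences, and what sets a cell's ribosomal protein share, was not tested.

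**Figure D3:**
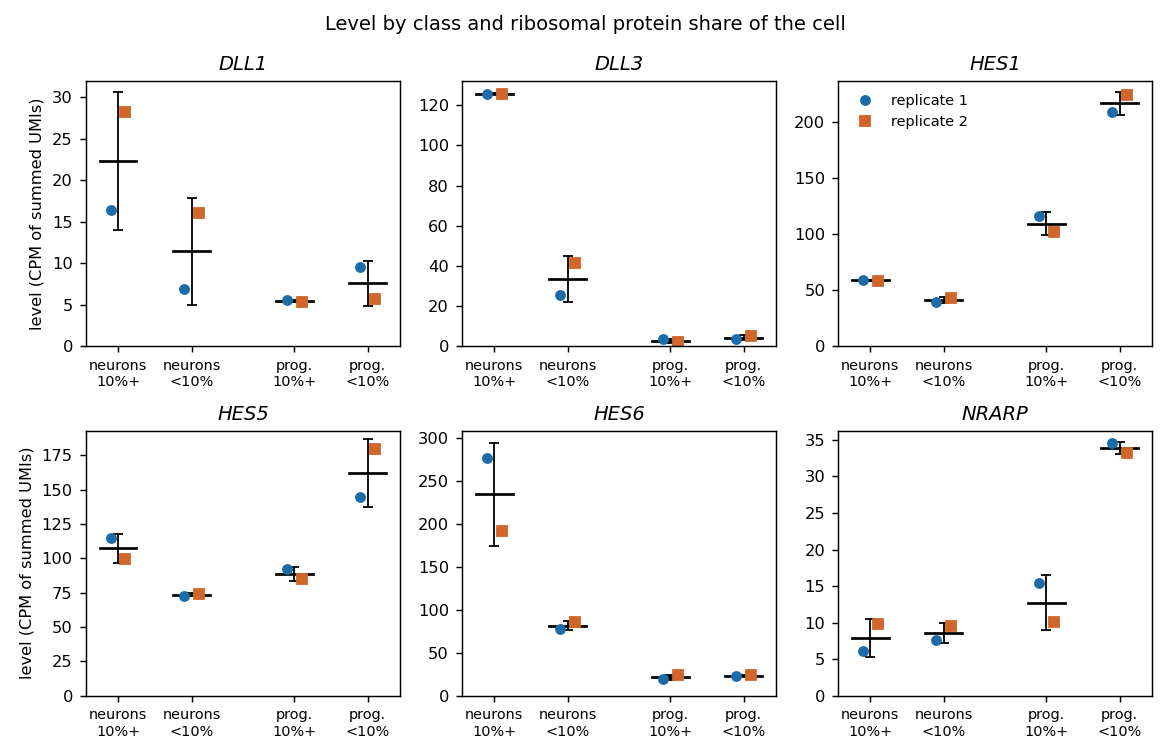
Level of each gene (CPM of summed UMIs) in neurons and progenitors (prog.) at a ribosomal protein share of at least 10% (10%+) or under 10% (<10%); points are the 2 replicates and bars their mean and SD (n = 2). DLL3 and HES6 are highest in neurons at or above 10%, and HES1, HES5 and NRARP are highest in progenitors under 10%.

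Co-detection asked which of these RNAs were found in the same cells. It is given as the share of cells with a UMI of one gene among those with and without a UMI of another, over the 15 pairs of the 6 genes, with no test since cells are not replicates. Because deep cells hold more of every gene, values at 2000 UMIs per cell, with classes kept, are printed beside some of the pairs. Where no thinned share is printed, the share is at full depth.

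Within neurons DLL3 and HES6 went together. HES6 was found in 67.3% (37 of 55) and 71.8% (56 of 78) of DLL3-positive neurons, against 26.7% and 32.7% of DLL3-negative neurons, and in thinned cells in 56.7% and 43.9%, against 10.5% and 16.6%. The intervals of the positive and negative cells did not overlap in either replicate. In SOX2-positive neurons the shares were 76.7% and 89.7%, against 23.8% and 29.0%. SOX2-negative neurons had 56.0% and 53.8%, against 29.1% and 36.4%.

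DLL1 joined them in fewer cells. HES6 was found in 62.1% and 57.4% of DLL1-positive neurons, against 29.7% and 36.0% of DLL1-negative neurons. DLL3 was found in 37.9% and 34.4% of DLL1-positive neurons, against 11.0% and 12.4% of DLL1-negative neurons. Only 6 and 22 thinned neurons held a DLL1 UMI, so these pairs could not be judged at equal depth in replicate 1. Most neurons with a ligand UMI had UMIs of 1 ligand only. A DLL1 UMI without a DLL3 UMI was found in 18 and 40, DLL3 without DLL1 in 44 and 57, and both in 11 and 21. With 37 and 98 DLL1 UMIs over all neurons, a cell with no UMI of a ligand may still express it.

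The Notch targets formed the other group. HES5 was found in 35.5% and 37.6% of HES1-positive neurons, against 11.3% and 12.2% of HES1-negative neurons; in thinned cells the shares were 14.3% and 31.1%, against 6.51% and 7.16%. NRARP was found in 11.8% and 16.8% of HES1-positive neurons, against 2.82% and 4.31% of HES1-negative neurons. In thinned cells that NRARP difference was 8.57% against 1.56% in replicate 1 and 2.22% against 2.17% in replicate 2, so it was not detectable at that depth in replicate 2.

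Pairs of DLL1, DLL3 or HES6 with HES1, HES5 or NRARP are given only in part, so no pattern over all of them is stated. For 2 of these pairs the shares ran lower. HES1 was found in 10.9% and 10.3% of DLL3-positive neurons, against 18.7% and 21.1% of DLL3-negative neurons, and in thinned cells in 3.33% and 2.44%, against 8.74% and 9.46%. HES6 was found in 22.4% and 25.7% of HES1-positive neurons, against 33.9% and 41.6% of HES1-negative neurons. The signs were the same in both replicates; the intervals overlapped in both replicates for DLL3 with HES1, and in replicate 1 for HES1 with HES6. Taken over either ligand and either of HES1 and HES5, no steady direction was seen. HES1 or HES5 was found in 21.9% and 25.4% of neurons with a ligand UMI, against 28.0% and 30.4% of the others. In thinned cells with classes kept it was 14.3% and 8.47%, against 14.3% and 16.3%, and with classes set again 2 of 25 and 4 of 43 neurons with a ligand UMI, against 5.49% and 6.82% of the others. HES5 and DLL3 showed no common direction, with HES5 in 12.7% and 20.5% of DLL3-positive neurons, against 16.0% and 16.6% of DLL3-negative neurons.

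**Figure D4:**
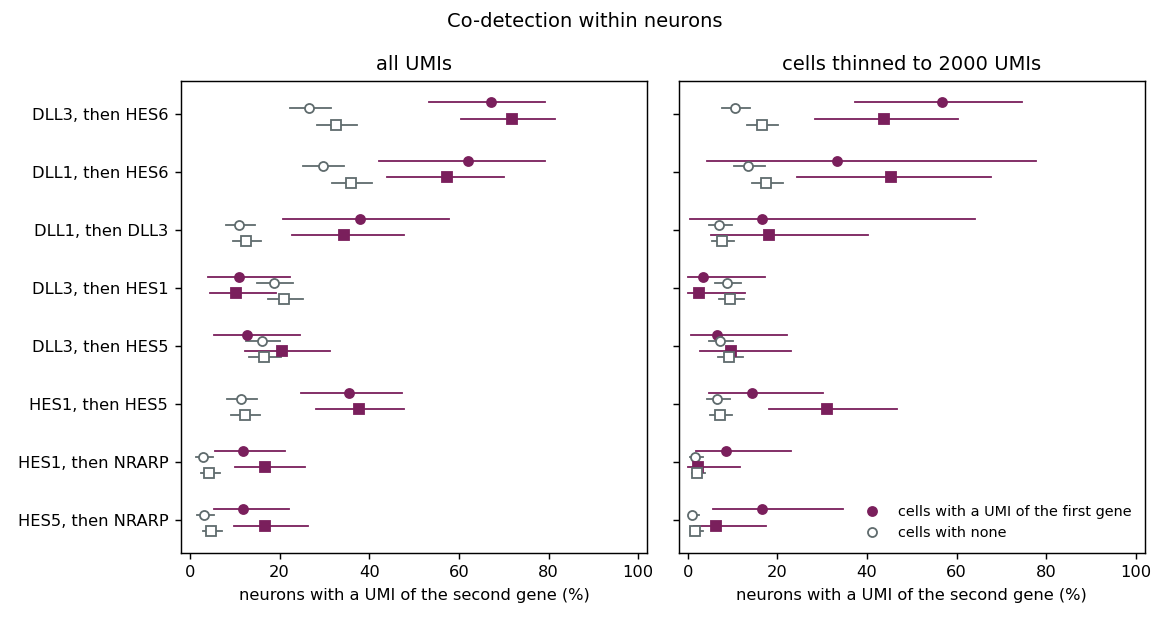
Share of neurons with a UMI of the second gene (x axis, %) among neurons with a UMI of the first gene (filled) and with none (open), for 8 pairs, with all UMIs (left) and with cells thinned to 2000 UMIs (right); circles are replicate 1, squares replicate 2, and bars 95% exact binomial intervals. HES6 in DLL3-positive neurons stands clear of DLL3-negative neurons in both panels and both replicates, and the HES1 shares of DLL3-positive neurons are lower with overlapping intervals.

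In progenitors the pairs were looser. HES6 was found in 20.5% and 20.4% of HES5-positive progenitors, against 8.67% and 10.4% of HES5-negative progenitors, and NRARP in 19.9% and 18.7%, against 10.7% and 8.96%. HES5 was found in 24.9% and 25.3% of HES1-positive progenitors, against 18.0% and 18.3% of HES1-negative progenitors. These were all in the same direction in both replicates, and HES6 with HES5 joins a gene higher in neurons to a Notch target. In thinned cells NRARP was still found in 15.2% and 10.9% of HES5-positive progenitors, against 6.23% and 4.22% of HES5-negative ones. The shares for HES6 with HES5 and for HES5 with HES1 are given at full depth. DLL3 was too rare in progenitors, with 16 and 21 positive cells, to describe a pair. HES1 or HES5 was found in 72.9% and 53.4% of progenitors with a ligand UMI, against 51.5% and 53.1% of the others. In thinned cells with classes kept it was 19.2% and 31.25%, against 30.8% and 30.2%, so no steady direction was seen.

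The UMIs of the neuronal genes were concentrated in few cells. The 10 cells with the most DLL3 held 63.1% and 44.5% of its UMIs, and the 10 with the most HES6 held 44.0% and 22.5%, against 9.36% and 7.51% for HES1 over all cells. A DLL3-positive neuron had on average 4.44 and 5.13 DLL3 UMIs and at most 33 and 32, while a DLL3-positive progenitor had 1.06 and 1.14. HES6 reached 73 and 30 UMIs in a single cell. HES5 was also uneven, with 27.0% and 22.6% of its UMIs in 10 cells and up to 61 in 1 progenitor. NRARP never exceeded 5 UMIs in a cell.

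The wider pathway was followed as a list of 52 genes, of which 49 were tested. Between neurons and progenitors 16 were higher and 12 lower, with a median log2 fold change of 0.19, beside 0.01 over all genes tested. These counts are set beside the 25.1% of all genes called higher and 21.7% called lower, and 16 and 12 of 49 lie near them. Of 7 tested ligands 4 were higher and 1 lower. DNER, a neuronal transmembrane protein described as a Notch ligand, stood at 129 and 130 CPM in neurons, against 5.62 and 4.00 CPM in progenitors (log2 4.95, SE 0.18, adjusted p = 1.72e-10). DLL4 was called higher on 14 and 7 UMIs in neurons and 6 and 4 in progenitors (log2 1.96, SE 0.57, adjusted p = 0.0133). JAG1, a ligand of the Jagged group, was lower, at 46.1 and 51.8 CPM in neurons, against 115 and 84.7 CPM in progenitors (log2 -0.81).

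Of 4 receptors tested, 3 were lower in neurons and none higher: NOTCH2 had 29.0 and 30.4 CPM in neurons, against 81.1 and 80.6 CPM in progenitors (log2 -1.26, SE 0.11, adjusted p = 1.62e-06), NOTCH3 fell by 0.75 on the log2 scale and NOTCH1 by 0.44. NOTCH4 did not pass, at 5.48 and 7.22 CPM in neurons, against 4.82 and 4.54 CPM in progenitors. Of 11 tested genes listed as targets, only HES6, which opposes HES1, was higher, and HES1, NRARP, HES4, HEY1 and HEY2 were lower. HES4 stood at 9.99 and 7.72 CPM in neurons, against 24.1 and 20.7 CPM in progenitors. Of 7 genes listed as inhibitors, 4 were higher and none lower: the E3 ligase gene DTX1 (log2 1.17), DTX3 (0.71), FBXW7 (0.49), which marks the active receptor for breakdown, and NUMBL (0.73), a relative of NUMB. Of 13 genes of glycosylation and processing, 4 were higher and 2 lower, and of 7 nuclear partners 3 were higher and 1 lower, beside the 25.1% and 21.7% of all genes.

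Within neurons 3 of 4 receptors differed by SOX2 detection. NOTCH1 (log2 2.20), NOTCH3 (1.74) and NOTCH2 (0.76) were higher in SOX2-positive than in SOX2-negative neurons. Of 10 tested genes listed as targets, HES6 among them, 8 were higher and none lower, and DNER was lower (-1.49). Over the list 16 genes were higher and 9 lower of 47 tested, with a median of 0.35, beside 0.02 over all genes, of which 17.7% were called higher and 17.7% lower.

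Between progenitors and other cells the list had 6 higher and 6 lower genes of 49, with a median of -0.0039, beside -0.0115 over all genes. Both counts lie near the 9.14% of all genes called higher and 14.1% called lower. Among targets ID4, a helix-loop-helix inhibitor, was higher beside HES5, at 445.5 and 519 CPM in progenitors, against 207 and 170 CPM in the other cells (log2 1.23). HES2 was lower (log2 -2.65), on 3 and 8 UMIs in progenitors and 16 and 20 in other cells. DNER (-1.58) and GAS1 (-0.75, with 12.0 and 13.6 CPM in progenitors, against 11.6 and 27.6 CPM in the other cells) were lower, and NOTCH3 (0.52) and DTX3 (1.10) higher.

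**Figure D5:**
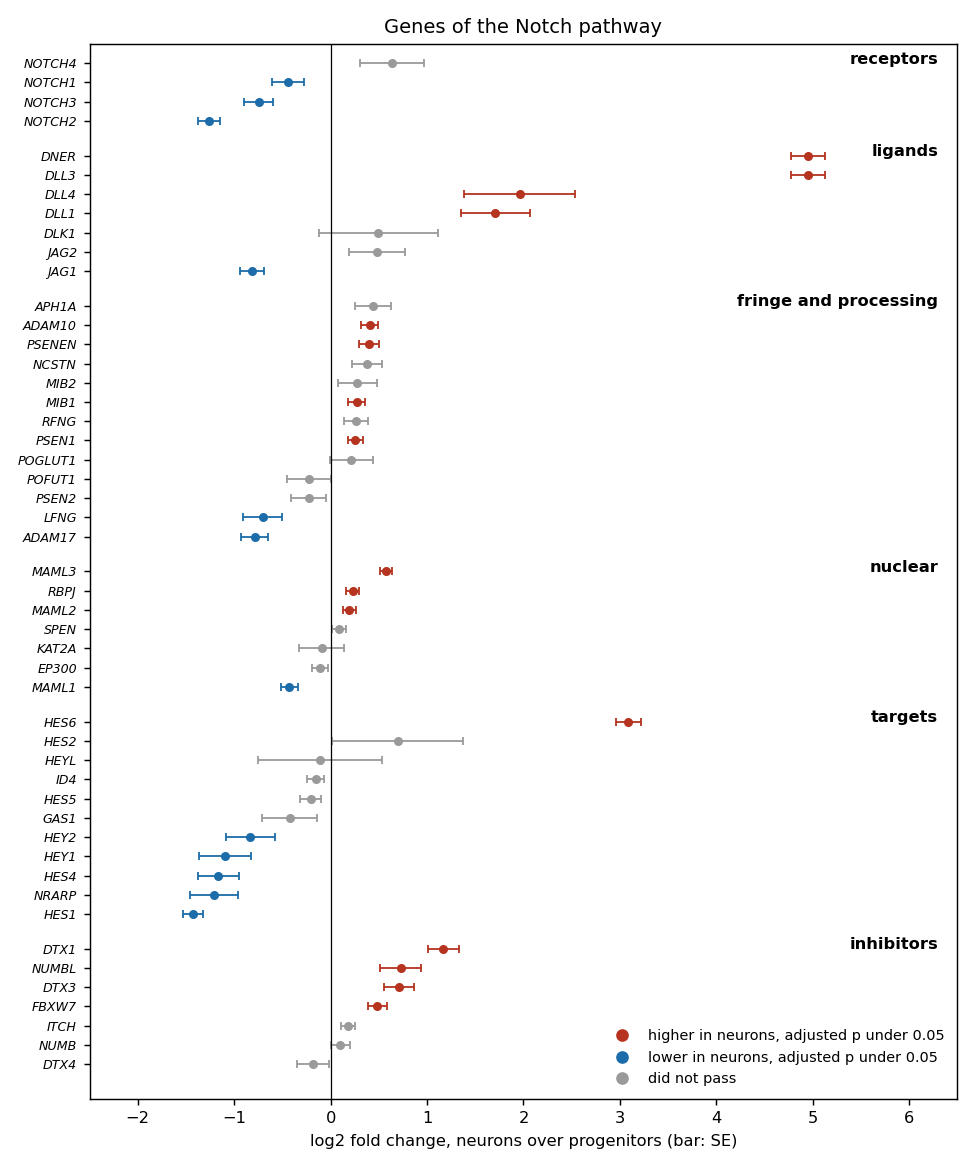
Log2 fold change of neurons over progenitors (x axis; bars are the SE) for the 49 tested genes of the Notch list, grouped by role; red genes were higher and blue genes lower by edgeR's quasi-likelihood test at an adjusted p under 0.05, and grey genes did not pass. DLL3 and DNER lead the ligands at 4.95, only HES6 of the listed targets is called higher, and 3 of 4 receptors lie below 0.

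Genes that mark the step from progenitor to neuron were taken as a second list of 29 proneural and early neuronal factors. Of these 20 were tested. Both lists, like the 6 genes, were chosen with earlier results of these data known, so their counts are a description. Between neurons and progenitors 18 were higher and 1 lower (median 3.62, beside 0.01 over all genes, of which 25.1% were called higher and 21.7% lower). The largest changes were in EBF1 (log2 5.71), MYT1 (5.49), EBF2 (4.66), NHLH2 (4.51), INSM1 (4.47), SCRT1 (4.47), CBFA2T3 (3.67) and EBF3 (3.66), all but CBFA2T3, a corepressor gene, being DNA-binding factors of forming neurons. INSM1, a zinc finger factor of newly formed neurons, stood at 71.9 and 79.9 CPM in neurons, against 4.82 and 3.20 CPM in progenitors. The lower gene was OLIG3, on 3 and 2 UMIs in neurons and 13 and 21 in progenitors. NEUROG2, which activates DLL1 in mice, had too few UMIs to test, with 7 and 8 in neurons and 1 and 2 in progenitors.

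The genes whose levels ran most like each of the 6 over the 12 classes of SOX2 and marker number were ranked by Pearson correlation of log2(CPM + 20) among 7939 genes. DLL3 was followed most closely by ADGRG1 (r = 0.95), ERICH1 (0.95) and INSM1 (0.95), and HES6 by HOXB2 (0.97) and ADGRG1 (0.96). HES1 was followed by SDAD1 (0.99), the hedgehog co-receptor BOC (0.98) and the replication factor MCM4 (0.98), NRARP by WDR74 (0.98), TYW1 (0.95) and TMEM216 (0.94), HES5 by MAGOHB, HMGN2 and DEK (0.96, 0.96 and 0.95), and DLL1 by IRAK4, GATA2 and ATP2B4 (0.89, 0.88 and 0.87). Among the 6 themselves r was 0.98 for DLL3 and HES6, 0.94 for DLL1 and DLL3, 0.91 for HES1 and NRARP, and -0.08 for DLL3 and HES5. These values describe 12 classes that share 2 libraries and a gradient of depth, and they carry no p.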

How the data were processed

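Single-cell RNA libraries of 2 replicates of day 25 chimeric bovine embryos were analysed from the deposited table of raw UMI counts per gene and cell, which the authors had not normalized. Per the submitters' processing notes, Cell Ranger, R 4.1.2, Seurat 4.3.0 and the bosTau9 build were used; no source used here gives the annotation. Every deposited cell had 201 to 3999 detected genes, and 499 genes had no count. The libraries were not the same library (chi-square 14.7 per degree of freedom over 15260 genes).

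Counts were summed per replicate and class and tested with edgeR 4.0.16 in R 4.3.3 (quasi-likelihood test, TMM, filterByExpr, a replicate block because the classes of a replicate come from the same suspension, Benjamini-Hochberg adjustment over all genes tested, threshold 0.05). The fit of 3 classes had 2 residual degrees of freedom, and for most genes the spread was mainly estimated over genes (median prior degrees of freedom 10.7). DESeq2 1.42.0 was an alternative. Fits were tested on simulated data. Thinning to 2000 UMIs left out 320 and 363 cells; no cell was left out otherwise, no doublet caller was used, and the precision of a share is its 95% exact binomial interval, or, where no cell had a UMI, the limit of 3 counts. Python 3.11.15, numpy 2.4.6, pandas 2.3.3 and scipy 1.17.1 were used.

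Genes were named by a rule: the 6 genes in every comparison, up to 8 called genes with the largest log2 fold changes from each list, and the 3 genes most like each of the 6, of which 1 is not reported here; a few other genes were named for their role after their values were seen. The 6 genes and the lists were chosen with earlier results of these data known. All 6 symbols were found in a RefSeq table of another assembly, used for names only.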

Additional observations from a re-analysis of the deposited data

Results flagged for a closer look

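A difference between cell groups under the same contrast is listed here for 5 genes that were chosen or named by rule. The test was the interaction test of edgeR over all genes. These 5 are not all the genes it called: of 12564 genes tested, 3.41% were called higher and 7.48% lower. In the 5 the log2 fold change of neurons over progenitors was higher at a ribosomal protein share of at least 10% than under 10%. The excess was 2.50 for DLL3 (SE 0.50, adjusted p = 4.86e-04). It was 1.32 for HES1 (SE 0.19, adjusted p = 4.38e-06), where neurons were below progenitors on both sides of the boundary and less so at or above it. For HES5 it was 1.22 (SE 0.18, adjusted p = 5.08e-06), with neurons above progenitors at or above 10% and below them under it. HES6 had 1.36 (SE 0.26, adjusted p = 6.79e-04), and INSM1, a factor of newly formed neurons, 2.07 (SE 0.48, adjusted p = 0.00278). With cells thinned to 2000 UMIs and classes set again none of DLL3, HES1, HES5 and HES6 passed. HES1 (1.38) and HES6 (0.93) kept their sign and much of their size, HES5 had 0.17 and DLL3 turned to -0.57. Neurons at or above 10% also held a larger share of SOX2-positive cells than those under it, and the part of this was not tested.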

How the results depend on the processing

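DLL3, HES6 and HES1 kept their direction and call between neurons and progenitors in all 12 alternatives with a test (DLL3 3.19 to 5.64, HES6 2.03 to 3.36, HES1 -3.53 to -0.80). The count of genes called there was 6210, and 3133 by DESeq2 and 2823 among cells of 10% or more ribosomal protein share. Between progenitors and other cells it was 3087 (1214 higher, 1873 lower), and 1732 with no replicate block (477 higher, 1255 lower), 1290 by DESeq2 (355 higher, 935 lower), 1033 in thinned cells, 1790 in cells thinned with their classes kept (an alternative chosen after seeing the data) and 1159 under a 10% share (294 higher, 865 lower); without the top 5% of cells by UMIs the total of 3110 leaned the other way (1760 higher, 1350 lower). Neurons against other cells gave 7079, and 4078 by DESeq2. The SOX2 split of neurons gave 4547, and 2583 by DESeq2, 206 thinned (55 higher, 151 lower), 2208 thinned with classes kept, 2117 and 1885 at or above and under a 10% share, and 2181 with 4 markers. The cycling split gave 2261 (984 higher, 1277 lower), and 756 with no replicate block (435 higher, 321 lower), 755 by DESeq2, 575 thinned, 973 thinned with classes kept, 667 (393 higher, 274 lower) and 618 (355 higher, 263 lower) at or above and under a 10% share. The interaction gave 1369 (429 higher, 940 lower), and 586 by DESeq2 (55 higher, 531 lower) and 500 thinned (106 higher, 394 lower). Of the 6 genes' calls, taking off the replicate block changed only that of HES1 between progenitors and other cells (log2 0.39).

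Signs that turned were HES5 between neurons and progenitors (0.29 at or above a 10% share, 0.30 with 2 markers); HES5 (-0.54 thinned) and NRARP (0.60 at or above a 10% share, 0.15 with 2 markers) between neurons and other cells; DLL1 (0.27 thinned, 0.33 at or above a 10% share) and DLL3 (0.10 under a 10% share, 0.014 with 4 markers) between progenitors and other cells. In the cycling split, where no value was called, they were DLL1 (0.37 thinned, 0.11 at or above a 10% share), DLL3 (0.044 by DESeq2, 0.95 at or above a 10% share, 0.34 with 2 SOX2 UMIs), HES1 (-0.00085 with no replicate block, -0.0050 unfiltered, -0.062 thinned with classes kept, -0.11 under a 10% share), HES5 (-0.53 thinned, -0.0031 under a 10% share) and HES6 (0.12 under a 10% share). In the interaction they were DLL1 (-0.16) and DLL3 (-0.57), both thinned. The cause was not tested. Over fold changes of the 6 genes, 348 alternative values stayed as they were in sign and call or size. Of the rest 34 lost a call, 8 gained one and 23 turned. Another 37 without a replicate moved by over 1 SE or, uncalled, turned in sign. The turned ones were all in the cycling split. Without replicate 2 they were DLL3 (1.04), HES5 (-0.58), NRARP (-0.20) and HES1 (-0.068). Without replicate 1 it was HES6 (0.066). The DESeq2 interaction has no adjusted p for DLL1 and NRARP. Leaving out a replicate left no residual degrees of freedom, so those values have no test and counts of genes were not made; DLL1 between neurons and progenitors ran from 0.82 to 2.30. Depth limits DLL1, DLL3 outside neurons and NRARP, which rest on few UMIs.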
